A study of Rattus norvegicus with 78 samples.

Results

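The genes described here encode proteins of the synaptic vesicle and of the SNARE complex: Syp, Syn1, Syn2, Snap25, Stx1a, Vamp1, Vamp2, Syt1 and Rab3a. They were chosen by name, as every probe set of the deposited value table that GEO's platform annotation gives to 1 of these 9 symbols. This gave 14 probe sets of 8 genes, out of 15866 probe sets (controls left out) and 10411 named genes in the whole series. Syt1, the vesicle's calcium sensor, had no probe set under that rule and is not analysed here.

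A synaptic vesicle holds neurotransmitter and fuses with the presynaptic membrane when calcium enters the terminal. Fusion is driven by the SNARE complex, in which a vesicle protein of the synaptobrevin family (Vamp1 or Vamp2) zips together with Stx1a and Snap25 of the plasma membrane. Syp is an abundant vesicle membrane protein, the synapsins Syn1 and Syn2 tie vesicles into a reserve pool, and Rab3a is a small GTPase that rides on vesicles and acts before fusion. In the hippocampus proteins of this kind are found throughout the layers of nerve terminals, and Syp is a common histological measure of terminal density.

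Expression was measured in left dorsal hippocampus of 78 male F344 rats, 1 Affymetrix RAE230A array per rat. Aged rats were 24 to 26 months old and young rats 4 to 6 months. The trained rats were trained in the Morris water maze, a test of spatial memory in a pool with a submerged platform, and the authors divided the aged trained rats by their maze performance into impaired (AI) and unimpaired (AU). Untrained rats stayed in the home cage and formed the groups NT-A (aged, n = 10) and NT-Y (young, n = 10). Groups 5T-AI, 5T-AU and 5T-Y (n = 10 each) were taken on the last day of training, day 5. Groups 21PT-AI (n = 9), 21PT-AU (n = 10) and 21PT-Y (n = 9) were taken 21 days after training, called day 21 below. The labels name no drug and no engineered allele. Maze time in the deposited animal table averaged 50.1 ± 8.05 s in 5T-AI, 16.2 ± 2.47 s in 5T-AU and 10.9 ± 5.52 s in 5T-Y (SD), and 54.9 ± 14.2 s in 21PT-AI, 16.8 ± 1.77 s in 21PT-AU and 10.5 ± 4.20 s in 21PT-Y. The rats of the AI and AU groups therefore differ in maze time by construction.

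Values are the authors' signal intensities, given below as log2(signal + 1), and only values of the same probe set are compared, since brightness depends on the probes. The median signal of an array lay between 228.4 and 267.8 units. The number of arrays limits the precision. Markers of dentate granule cells and CA pyramidal cells were measured in all 8 groups, with a summed signal from 1194 to 1977 units and from 6776 to 13097 units. No listed marker of any cell type was at 0 in an array. Of the neighbouring tissues, Lef1 and Tnnt1 of the thalamus list and Kcnj13 and Kl of the choroid plexus list never passed the level used as the lower filter. Nor did Pdzd2 of the dentate list. The other thalamus and choroid plexus markers on the array did pass it in some arrays. Summed signals ran from 1106 to 2511 units for the thalamus list and from 607 to 1310 units for the choroid plexus list. Neighbouring tissue in the samples is therefore not excluded. In a whole piece of tissue, fewer cells of a type and less RNA per cell cannot be told apart.

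One array stood apart before any comparison. The array 5T-AI replicate 4 had the lowest mean correlation with the other arrays, 0.937 against a median of 0.968 over 78 arrays. It was the lowest of all 78 arrays for 9 of the 13 tested member probe sets, which lay 0.55 to 1.03 below the mean of the other 5T-AI arrays on the log2 scale. Snap25 was not among them: its level there was 12.81 and the other 5T-AI arrays averaged 13.06. In the same array the summed signal of 10 neuronal markers, a list that includes Snap25, was 28569 units, and the other 5T-AI arrays had 35548 to 40696 units. The sum of 11 microglial markers was 30941 units there, against 7859 to 10652 units in the other 5T-AI arrays. The part of these other cell types in the member levels was not tested, and results that rest on this array are given with and without it.

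The promoters of 4 members are printed because their levels varied together across rats (Syp and Vamp2) or because they alone among the members held a complete cyclic-AMP response element (Syn1 and Vamp1). Each runs from 250 bases before to 50 bases after the start site, 5′ to 3′ on the gene's strand, from RefSeq on the build GRCr8. The Vamp2 window lies wholly inside the span of that gene (54292423 to 54296657), so its start site is not the first base of the span. Capitals mark matches on either strand to GGGCGG (the GC box), TGACG (the short form of the cyclic-AMP response element), its complete form TGACGTCA, which contains the short form on both strands, or CAGCACC (the left part of the RE1 element). The matches are runs of letters and not shown to be sites.
Syp, chrX:17536400-17536699, minus strand: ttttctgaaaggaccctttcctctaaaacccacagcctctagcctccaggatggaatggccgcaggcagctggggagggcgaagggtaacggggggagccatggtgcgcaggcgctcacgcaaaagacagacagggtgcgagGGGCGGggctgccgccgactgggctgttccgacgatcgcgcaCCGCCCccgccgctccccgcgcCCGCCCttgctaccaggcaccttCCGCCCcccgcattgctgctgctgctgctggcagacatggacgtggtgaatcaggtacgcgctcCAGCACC
Vamp2, chr10:54292539-54292838, plus strand: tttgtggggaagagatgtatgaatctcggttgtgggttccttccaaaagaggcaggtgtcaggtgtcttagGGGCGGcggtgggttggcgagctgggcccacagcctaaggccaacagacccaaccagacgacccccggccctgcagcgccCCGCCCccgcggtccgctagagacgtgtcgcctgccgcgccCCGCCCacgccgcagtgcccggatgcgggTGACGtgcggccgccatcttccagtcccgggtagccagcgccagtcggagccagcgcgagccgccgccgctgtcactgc
Syn1, chrX:3725495-3725794, plus strand: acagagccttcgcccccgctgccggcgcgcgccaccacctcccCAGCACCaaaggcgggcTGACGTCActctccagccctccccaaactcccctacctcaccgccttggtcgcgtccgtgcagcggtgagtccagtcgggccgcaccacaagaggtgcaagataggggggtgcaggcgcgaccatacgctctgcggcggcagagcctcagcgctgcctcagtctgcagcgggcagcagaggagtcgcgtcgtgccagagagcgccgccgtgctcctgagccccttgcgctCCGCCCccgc
Vamp1, chr4:159698644-159698943, plus strand: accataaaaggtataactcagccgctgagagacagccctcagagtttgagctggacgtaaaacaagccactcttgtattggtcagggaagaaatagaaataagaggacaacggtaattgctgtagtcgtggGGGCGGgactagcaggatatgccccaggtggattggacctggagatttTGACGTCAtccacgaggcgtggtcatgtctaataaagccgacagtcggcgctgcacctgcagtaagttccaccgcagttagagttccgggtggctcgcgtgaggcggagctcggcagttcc

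Of the 8 measured members, 7 had a promoter in the RefSeq table, Snap25 being the exception. All 7 held a GC box, which 33.1% of 33469 rat promoters of the same length hold. The short form TGACG was found in Rab3a, Syn1, Vamp1 and Vamp2, and in 21.2% of all promoters. The complete TGACGTCA was found in Syn1, 190 bases before the start site, and in Vamp1, 71 bases before it, and in 1.83% of all promoters. CAGCACC occurred in Syn1 and Syp and in 6.78% of all promoters. The right part of RE1, GGACAG, which stands in 21.7% of all promoters, the E box CACGTG (6.42%) and the letters TATAAA (14.2%) were found in none of the 7. The GC content of the 7 windows ran from 53.3% in Vamp1 to 71% in Syn1, and the median over all promoters was 51.7%.

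Of the 14 member probe sets 13 passed the filter on dim probes, which asked for a signal over the array's 40th percentile in 9 or more arrays, and 11 of these did so in all 78 arrays. The exception was the Vamp2 probe set 1371160_at, which was above that level in 0 of 78 arrays. Its signal averaged 72.6 units and it has no test. The members lie on the following chromosomes: Syp (17521348 to 17536449) and Syn1 (3725745 to 3780940) on X, Syn2 (149858919 to 150016845) and Vamp1 (159698894 to 159705582) on 4, Snap25 (144494579 to 144576449) on 3, Vamp2 (54292423 to 54296657) on 10, Stx1a (27278517 to 27306547) on 12 and Rab3a (18718164 to 18722273) on 16, all in GRCr8 coordinates. Which exon or end of a transcript each probe set reads was not determined here.

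The level of Snap25, a SNARE protein of the plasma membrane, varied little. Its group means ran from 13.03 in 5T-AI to 13.18 in NT-A, a span of 0.14, and the spread within groups was 0.14 (pooled SD). In 21PT-AI the lowest, median and highest levels were 13.03, 13.19 and 13.23, in 21PT-AU 12.79, 13.10 and 13.34, and in 21PT-Y 12.80, 13.07 and 13.39. The aged and young ranges overlapped. The mean signal of Snap25 was 8888 units.

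Syp spanned 0.24, between means of 11.74 in 5T-AI and 11.98 in 21PT-Y, with a within-group SD of 0.14. On day 21 its lowest, median and highest levels were 11.66, 11.85 and 12.17 in 21PT-AI, 11.63, 11.86 and 11.94 in 21PT-AU, and 11.79, 12.01 and 12.12 in 21PT-Y. The young day 21 rats thus had the higher median, and the ranges overlapped. In untrained rats the levels were 11.71, 11.83 and 12.09 in NT-A, against 11.70, 11.89 and 12.09 in NT-Y.

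For all 14 probe sets the ranges of all 8 groups overlapped. Among the tested ones, the span of the 8 group means was 0.57 to 1.77 times the within-group SD, smallest in the Vamp1 probe set 1387519_at and largest in Syp. No gap between neighbouring groups in the order of means was larger than 0.75 of that SD, so no neighbours in any order stood apart by more than the spread within groups. The 5T-AI group had the lowest mean for 8 of the 14 probe sets, among them both of Syn1 (11.66 and 10.12) and Rab3a (11.26), and it holds the array described above.

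**Figure D1:**
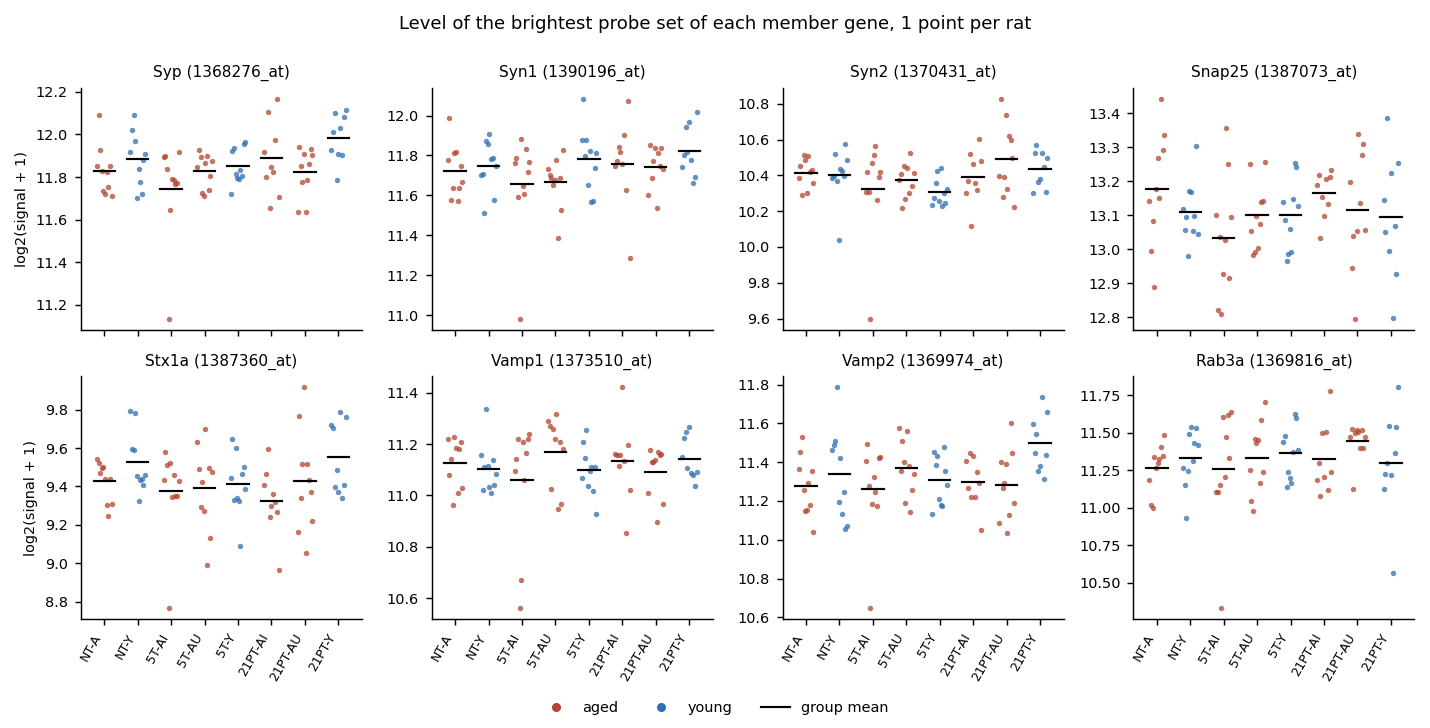
Levels of the brightest probe set of each of the 8 measured members, log2(signal + 1) on the vertical axis and the 8 groups on the horizontal axis, 1 point per rat, aged in red and young in blue, with the group mean as a bar. The groups overlap in every panel, and 5T-AI replicate 4 is the low point in all panels except that of Snap25.

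The first comparison asks whether these presynaptic transcripts differ with age. Over the 3 cohorts together (49 aged and 29 young rats) no member probe set passed the test, an adjusted p under 0.05 in limma over all 10371 tested probe sets: 0 of 13 were called, against 8.78% of all tested probe sets (911 called). At an unadjusted p under 0.05 there were 4 of 13, against 21.5% of all probe sets. The members' differences ran from -0.10 to 0.17 with 6 above 0 and 7 below, and their median was -0.004, against -0.006 over all tested probe sets. The 95% confidence intervals of the brightest probe set of each gene allowed changes between -12.5% and 6.85% in aged relative to young rats. Over all 13 tested member probe sets they allowed changes between -12.5% and 21.7%.

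Syp, the vesicle membrane protein, was 0.08 ± 0.03 (SE) lower in aged rats on the log2 scale (adjusted p = 0.097), with 38 of 49 aged arrays below the young mean. Its 95% interval was -9.71% to -1.29%. The adjusted p fell under the threshold with quantile normalization (0.038) or with replicate number, scan day or chip lot as a block (0.042 to 0.049), the chip lot having been added after the data were seen. Within the 3 chip lots the difference was -0.06, -0.10 and -0.09.

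The synapsins pointed in no common direction. Syn1, a phosphoprotein that tethers vesicles, had differences of -0.07 ± 0.04 (1390196_at, adjusted p = 0.266) and -0.06 ± 0.04 (1369251_a_at, adjusted p = 0.468). For Syn2, its close relative, they were 0.02 ± 0.04 (1370431_at) and 0.12 ± 0.07 (1369482_a_at, adjusted p = 0.353). The Snap25 difference was 0.03 ± 0.03 (adjusted p = 0.690), with an interval from -2.59% to 6.52%.

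Stx1a, the membrane partner of Snap25, differed by -0.10 ± 0.05 in its brighter probe set 1387360_at (adjusted p = 0.157) and by 0.10 ± 0.09 in the dimmer 1387359_at (adjusted p = 0.574). Of the vesicle SNAREs, Vamp2 differed by -0.09 ± 0.04 (adjusted p = 0.201). Vamp1 differed by 0.002 ± 0.03 in its brightest probe set 1373510_at (interval -4.16% to 4.7%) and by 0.17 ± 0.06 in 1370556_at (adjusted p = 0.064). The level of 1370556_at was higher than the young mean in 38 of 49 aged arrays, and its difference was 0.14, 0.19 and 0.15 within the 3 chip lots. Its adjusted p was under the threshold with replicate number, scan day or chip lot as a block (0.039 to 0.044) and without 5T-AI replicate 4 (0.020), and not in the other alternatives. Its dimmest probe set, 1387519_at, differed by -0.004 ± 0.05, so the difference was seen in 1 of the 3 Vamp1 probe sets. Rab3a differed by -0.02 ± 0.06 (adjusted p = 0.899).

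**Figure D2:**
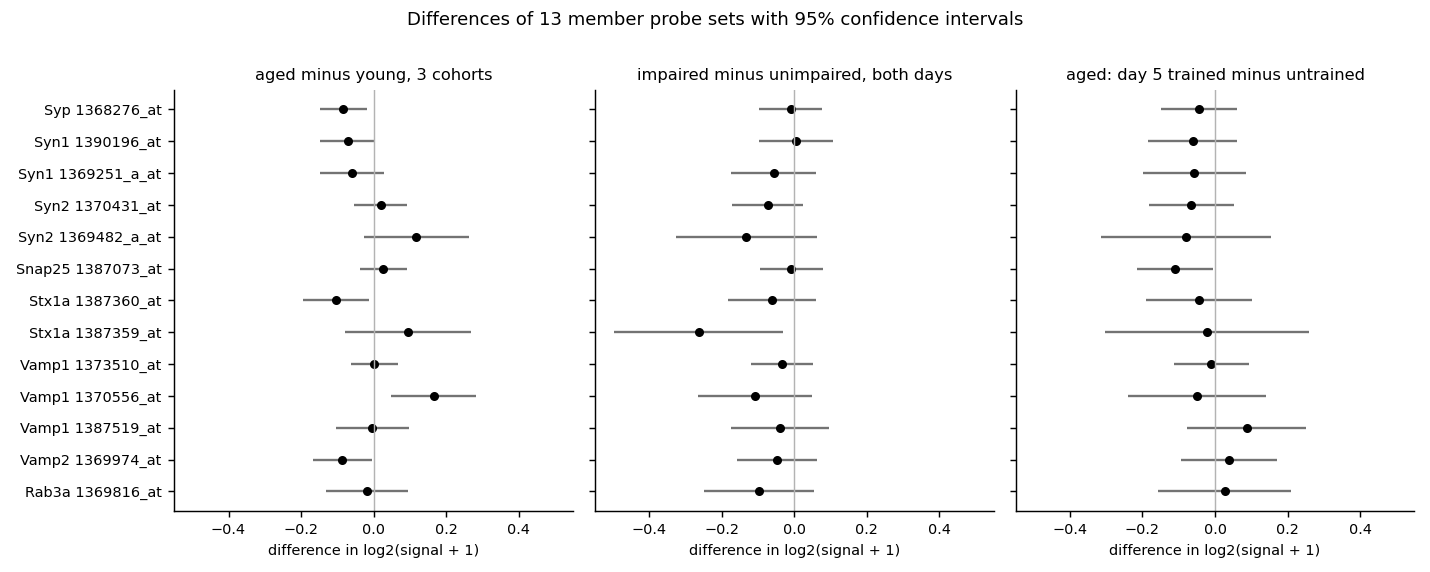
Differences in log2(signal + 1) of the 13 tested member probe sets (rows) for aged minus young rats over 3 cohorts, impaired minus unimpaired aged rats over both days, and aged rats trained to day 5 minus untrained aged rats. Points are the limma estimates and lines their 95% confidence intervals. No probe set passed the adjusted threshold in any panel.

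The age comparison was also made in each cohort. In untrained rats 0 of 13 member probe sets passed in limma, against 0.781% of all, and 1 had an unadjusted p under 0.05 (8.73% of all). This was the Vamp1 probe set 1370556_at, with lowest, median and highest levels of 9.48, 9.74 and 10.09 in NT-A, against 9.17, 9.56 and 9.88 in NT-Y. The difference was 0.22 ± 0.11 (adjusted p = 0.549). All 10 NT-Y arrays used fluidics module 1 and no NT-A array did, so module and age cannot be told apart between these groups. Syp (-0.05 ± 0.06), Snap25 (0.07 ± 0.06) and Vamp2 (-0.06 ± 0.08) had adjusted p of 0.846 to 0.919.

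On day 5, too, 0 of 13 passed in limma, against 2.5% of all, and 1 had an unadjusted p under 0.05 (12.2% of all). This was the Syn1 probe set 1369251_a_at, at 9.53, 10.18 and 10.34 (lowest, median, highest) in 5T-AI and 9.92, 10.25 and 10.44 in 5T-AU, against 10.14, 10.35 and 10.53 in 5T-Y. The difference was -0.19 ± 0.07 (adjusted p = 0.160), with 16 of 20 aged arrays below the young mean. The brighter Syn1 probe set 1390196_at differed by -0.12 ± 0.06 (adjusted p = 0.435).

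On day 21 again 0 of 13 passed in limma, against 2.84% of all. An unadjusted p under 0.05 was reached by 5 of 13, against 16.7% of all probe sets. Of these 5, Syp (-0.13 ± 0.05), Vamp2 (-0.21 ± 0.07, adjusted p = 0.091) and the Stx1a probe set 1387360_at (-0.18 ± 0.08) were lower in aged rats. The Vamp1 probe set 1370556_at (0.32 ± 0.10, adjusted p = 0.062) and the Syn2 probe set 1369482_a_at (0.32 ± 0.12, adjusted p = 0.159) were higher. For Vamp1 and Syn2 the brighter probe set did not share the difference: 1373510_at of Vamp1 differed by -0.03 ± 0.05 and 1370431_at of Syn2 by 0.006 ± 0.06. For Stx1a the dimmer probe set 1387359_at differed in the other direction, by 0.24.

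Vamp2, the main synaptobrevin of forebrain terminals, had lowest, median and highest levels of 11.05, 11.30 and 11.45 in 21PT-AI, 11.04, 11.28 and 11.60 in 21PT-AU, and 11.31, 11.45 and 11.74 in 21PT-Y. Both aged groups had lower medians than the young group, 18 of 19 aged arrays lay below the young mean, and the ranges overlapped. The difference was -0.22, -0.21 and -0.19 within the 3 chip lots. Without 5T-AI replicate 4, which enters this comparison only through the shared estimate of spread, the adjusted p of Vamp2 was 0.042.

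The Vamp1 probe set 1370556_at had levels of 9.31, 9.84 and 10.13 in 21PT-AI, 9.77, 9.92 and 10.11 in 21PT-AU, and 8.99, 9.58 and 10.15 in 21PT-Y. The aged medians were higher and the young range enclosed both aged ranges. The difference passed under 5 of 10 alternatives (adjusted p from 0.027 to 0.047), among them the fit without 5T-AI replicate 4 (0.027). Within the chip lots it was 0.32, 0.51 and 0.12.

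The Syn2 probe set 1369482_a_at had levels of 9.66, 10.36 and 10.89 in 21PT-AI, 10.12, 10.49 and 10.97 in 21PT-AU, and 9.42, 10.06 and 10.94 in 21PT-Y. The aged medians were higher, 17 of 19 aged arrays lay above the young mean, and the ranges overlapped. With scan day as a block its adjusted p was 0.049, and within the chip lots the difference was 0.34, 0.56 and 0.04. The Stx1a probe set 1387360_at had levels of 8.97, 9.32 and 9.60 in 21PT-AI, 9.06, 9.40 and 9.92 in 21PT-AU, and 9.34, 9.49 and 9.79 in 21PT-Y (adjusted p = 0.212). Here 16 of 19 aged arrays lay below the young mean. Rab3a, with levels of 11.08, 11.24 and 11.78 in 21PT-AI, 11.13, 11.49 and 11.53 in 21PT-AU, and 10.57, 11.30 and 11.81 in 21PT-Y, differed by 0.08 ± 0.10. Its young range enclosed both aged ranges.

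A measure of RNA quality had unlike means in the day 21 groups, the 3′ over 5′ signal ratio of the beta-actin control, which is higher where RNA is shorter or was copied less completely. That ratio averaged log2 0.76 ± 0.28 in 21PT-AI and 0.60 ± 0.23 in 21PT-AU, against 0.99 ± 0.38 in 21PT-Y (SD). Within groups, over 78 arrays, the ratio correlated negatively with 5 member probe sets: Syn2 1369482_a_at (Pearson r = -0.72, Spearman rho = -0.75), Rab3a (-0.66 and -0.75), Stx1a 1387359_at (-0.65 and -0.65), Vamp1 1370556_at (-0.56 and -0.61) and Syn1 1369251_a_at (-0.55 and -0.52). It correlated positively with Vamp2 (r = 0.53, rho = 0.53) and Syp (0.31 and 0.35). For the first 6 the permutation p of r and of rho was 1e-05, the smallest that 100000 permutations can give, and 2.17e-05 after adjustment over the 13 relations. For Syp the p of r was 0.0059 and 0.011 after adjustment.

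These relations kept their sign when the 2 arrays farthest in the ratio were left out, with r = -0.69 for Syn2, -0.61 for Rab3a, -0.60 for Stx1a, -0.51 for Vamp1, -0.47 for Syn1, 0.50 for Vamp2 and 0.26 for Syp. Within the 3 chip lots the 5 negative ones ran from -0.37 to -0.78 and that of Vamp2 from 0.43 to 0.60, while that of Syp was 0.61, 0.30 and -0.04. Of all 10371 tested probe sets 6.45% had r below -0.5 and 0.964% above 0.5, against 5 and 1 of the 13 member probe sets. Other probe sets of the same genes had other values: r was -0.04 for Syn1 1390196_at, 0.01 for Syn2 1370431_at, 0.20 for Stx1a 1387360_at and 0.23 for Vamp1 1373510_at (adjusted p from 0.068 to 0.925). Spearman's rho of Vamp1 1373510_at was 0.30 (permutation p = 0.0072, adjusted p = 0.012), opposite in sign to that of 1370556_at. For Snap25 r was -0.17 (rho = -0.21, adjusted p = 0.191 and 0.091).

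**Figure D3:**
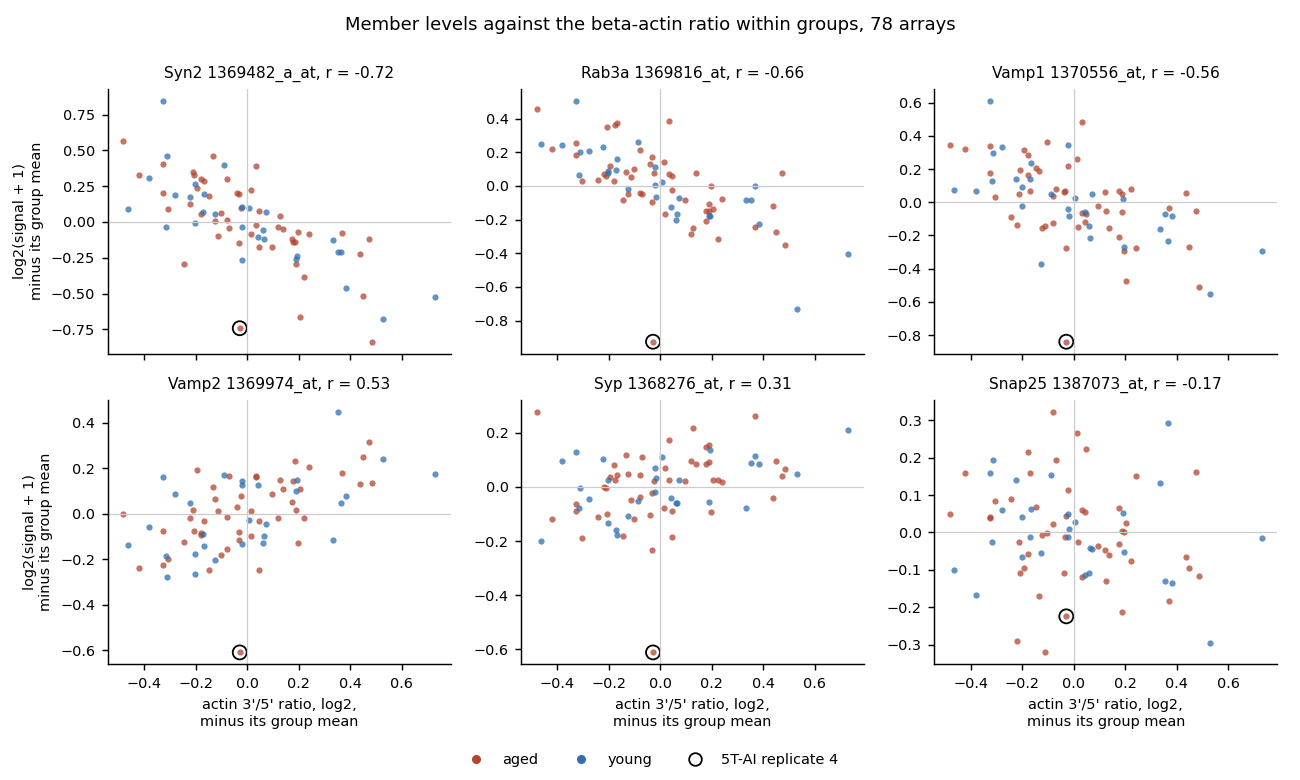
Level of 6 member probe sets, log2(signal + 1) minus the group mean (vertical), against the log2 beta-actin 3′/5′ ratio minus its group mean (horizontal), 1 point per array, aged in red and young in blue. Syn2 1369482_a_at, Rab3a and Vamp1 1370556_at slope down, Vamp2 and Syp slope up and Snap25 is nearly flat, and the circled array is 5T-AI replicate 4.

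With the actin ratio as a covariate, the day 21 age difference of Vamp1 1370556_at was 0.15, that of Syn2 1369482_a_at 0.05, that of Vamp2 -0.10 and that of Syp -0.08, with adjusted p of 0.616 to 0.948. That of Stx1a 1387359_at was -0.05 with the covariate, against 0.24 without it, and that of Rab3a -0.11 against 0.08. Over the 3 cohorts the difference of Vamp1 1370556_at was 0.13 with the covariate (adjusted p = 0.099) and that of Syp -0.07 (adjusted p = 0.152). In neither age comparison did any of the 13 probe sets pass with this covariate.

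**Figure D4:**
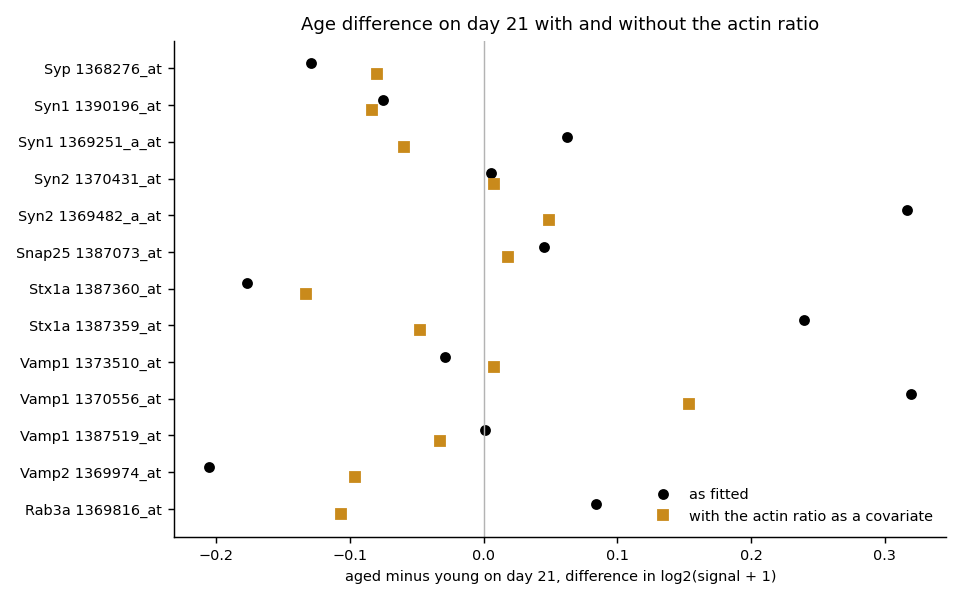
Aged minus young difference in log2(signal + 1) on day 21 for the 13 member probe sets (rows), as fitted (black circles) and with the beta-actin ratio as a covariate (orange squares). The differences of 0.32 for Vamp1 1370556_at and Syn2 1369482_a_at, 0.24 for Stx1a 1387359_at and -0.21 for Vamp2 all lie nearer to 0 with the covariate, that of Stx1a on the other side of it. Others change sign without lying clearly nearer to 0: Rab3a goes from 0.08 to -0.11 and Syn1 1369251_a_at from 0.06 to -0.06.

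The second comparison asks whether the members differ between impaired and unimpaired aged rats. In limma 0 of 13 passed on day 5, on day 21 or over both days, and the count over all probe sets was 0% for each. At an unadjusted p under 0.05 there were 0 of 13 members on day 5 (4.58% of all probe sets), 1 on day 21 (4.6%) and 1 over both days (5.86%). The intervals of the brightest probe sets over both days allowed changes between -15.9% and 7.69% in AI relative to AU rats. Those of all 13 tested member probe sets allowed changes between -29.2% and 7.69%.

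The 1 probe set at an unadjusted p under 0.05 was Stx1a 1387359_at, with lowest, median and highest levels of 7.73, 8.01 and 8.73 in 21PT-AI, against 8.13, 8.47 and 8.85 in 21PT-AU. The day 21 difference was -0.38 ± 0.17 (adjusted p = 0.993), and 7 of 9 AI arrays lay below the AU mean. The brighter Stx1a probe set 1387360_at differed by -0.11 ± 0.09. The actin ratio was higher in 21PT-AI (0.76) than in 21PT-AU (0.60), and 1387359_at correlated negatively with it. With the ratio as a covariate the difference was -0.23. Over both days the difference was -0.26 ± 0.12 (adjusted p = 0.829), with 13 of 19 AI arrays below the AU mean.

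On day 5 all 13 member differences were below 0, from -0.14 for Stx1a 1387359_at to -0.008 for Syn1 1390196_at, with a median of -0.07. Without 5T-AI replicate 4 there were 7 above 0 and 6 below, with a median of 0.006. The shared sign therefore rested on that array. The levels of Syp, for example, were 11.13, 11.79 and 11.92 in 5T-AI, against 11.71, 11.86 and 11.93 in 5T-AU, and the lowest 5T-AI value after 11.13 was 11.65. The difference between the days in the effect of impairment passed for 0 of 13 (limma, 0% of all), with 0 at an unadjusted p under 0.05 (3.35% of all).

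Inside the trained groups, the slope on maze time also passed for 0 of 13 (limma, 0% of all), with 0 at an unadjusted p under 0.05 (6.94% of all). The slopes per 10 s of maze time ran from -0.03 for Syn2 1370431_at to 0.07 for Stx1a 1387359_at on the log2 scale, with standard errors from 0.03 to 0.07. The slope of Syp was -0.03 ± 0.03 and that of Snap25 -0.01 ± 0.03.

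The third set of comparisons asks whether training or the time after it went with the members. In aged rats on day 5 against untrained aged rats 0 of 13 passed in limma, against 0.154% of all. The 1 with an unadjusted p under 0.05 (9.16% of all) was Snap25, at -0.11 ± 0.05 (adjusted p = 0.520). Its lowest, median and highest levels were 12.81, 13.03 and 13.36 in 5T-AI and 12.98, 13.09 and 13.26 in 5T-AU, against 12.89, 13.16 and 13.44 in NT-A. In young rats 0 of 13 passed (limma, 0.0675% of all), and the 1 with an unadjusted p under 0.05 (3.16% of all) was Vamp1 1370556_at. It had levels of 9.55, 9.74 and 10.11 in 5T-Y, against 9.17, 9.56 and 9.88 in NT-Y, a difference of 0.22 ± 0.11 with 10 of 10 trained arrays above the untrained mean (adjusted p = 1.00). All 10 NT-Y arrays used fluidics module 1 and no 5T-Y array did, so module and training cannot be told apart between these groups. With module as a term the Vamp1 1370556_at difference was 0.11. The difference in the training effect between aged and young rats passed for 0 of 13 (limma, 0% of all), with 0 at an unadjusted p under 0.05 (3.72% of all).

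Day 21 against untrained rats gave 0 of 13 in aged rats and 0 of 13 in young rats (limma, 0% of all in both). The counts at an unadjusted p under 0.05 were 0 in aged rats (5.54% of all) and 1 in young rats (2.44% of all), where it was Vamp2 (0.16 ± 0.08). Day 21 against day 5 gave 0 of 13 in aged rats (0.0675% of all) and 0 of 13 in young rats (0.0964% of all), with 1 (6.03% of all) and 3 (7.37% of all) at an unadjusted p under 0.05. These comparisons share groups with each other and with the age comparisons. In aged rats this was Syn2 1369482_a_at (0.20 ± 0.10), and 11 of the 13 differences were above 0 with a median of 0.09. Without 5T-AI replicate 4 the Syn2 difference was 0.16, the median 0.05 and 10 of 13 were above 0. In young rats they were Vamp2 (0.19 ± 0.08), Syp (0.13 ± 0.06) and Vamp1 1370556_at (-0.23 ± 0.11), whose adjusted p ran from 0.600 to 0.674. The actin ratio, with which these 3 probe sets correlated, averaged log2 0.99 in 21PT-Y, against 0.66 in 5T-Y. With the ratio as a covariate the differences were 0.07 for Vamp2, 0.08 for Syp and -0.05 for Vamp1 1370556_at (adjusted p = 0.999 for each). The 21PT-Y group, which enters both this comparison and the age comparison on day 21, had the highest mean of all 8 groups for Syp, Vamp2, Syn1 1390196_at and Stx1a 1387360_at, and the lowest for Vamp1 1370556_at, Syn2 1369482_a_at and Stx1a 1387359_at.

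Across rats, after the group means were removed, some pairs of members varied together and others did not. For comparison, each member's brightest probe set had a median r between -0.04 and 0.004 with 8682 tested probe sets of other genes. Among the 28 pairs of the brightest probe sets Pearson's r ran from -0.19 to 0.70 with a median of 0.39, and 18 pairs passed a permutation test after adjustment over the 28, all of them positive. By Spearman's rho 11 of the 28 passed, again all positive. How many pairs of other probe sets would pass was not counted, so these counts are not read as particular to the members. Part of this rested on 5T-AI replicate 4: without it the median of r was 0.18 (from -0.30 to 0.63), and 15 pairs passed, 13 of them positive. The 2 negative ones were Vamp2 with Rab3a (-0.30, adjusted permutation p = 0.018) and Snap25 with Stx1a (-0.29, adjusted permutation p = 0.023). Vamp2 and Rab3a had r of 0.53 and -0.66 with the actin ratio. Rab3a is 1 of the 5 probe sets with r below -0.5 for that ratio. With the ratio removed and 5T-AI replicate 4 left out, the lowest r between those 5 and the other member probe sets was -0.02. The closest pair was the vesicle proteins Syp and Vamp2, with r = 0.70 and rho = 0.69 (permutation p = 1e-05, the smallest that the permutations can give). It was 0.63 without 5T-AI replicate 4 or without the 2 arrays farthest in Syp, and 0.72, 0.85 and 0.57 within the 3 chip lots. After the actin ratio was removed it was 0.67, and 0.55 when 5T-AI replicate 4 was left out as well. Stx1a and Vamp2, partners in the complex, had r = 0.64 for the brighter Stx1a probe set 1387360_at (rho = 0.58, and r = 0.57 without that array). The dimmer 1387359_at had r = -0.24 with Vamp2. Snap25, the remaining partner, had r = -0.19 with Stx1a and -0.14 with Vamp2 (adjusted p = 0.137 and 0.314), and -0.29 and -0.25 without that array. Among the brightest probe sets Snap25 was closest to Rab3a (r = 0.46, rho = 0.42), and over all 13 to Stx1a 1387359_at (r = 0.51).

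Probe sets of the same gene went together only in part. Over 78 arrays r was 0.61 between the 2 probe sets of Syn1 and 0.37 between those of Syn2. It was -0.0003 between those of Stx1a, and -0.17, 0.27 and 0.29 between the 3 of Vamp1. The 5 probe sets with r below -0.5 for the actin ratio correlated with each other at 0.69 to 0.84 over their 10 pairs, across 5 genes, and at 0.53 to 0.70 after the ratio was removed. They were grouped after their values were seen, and these values are a description. Between them and the other 8 probe sets r ran from -0.24 to 0.61, with a median of 0.25 over 40 pairs. Without 5T-AI replicate 4 that median was 0.10, and after the actin ratio was removed r ran from 0.05 to 0.70 with a median of 0.34.

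**Figure D5:**
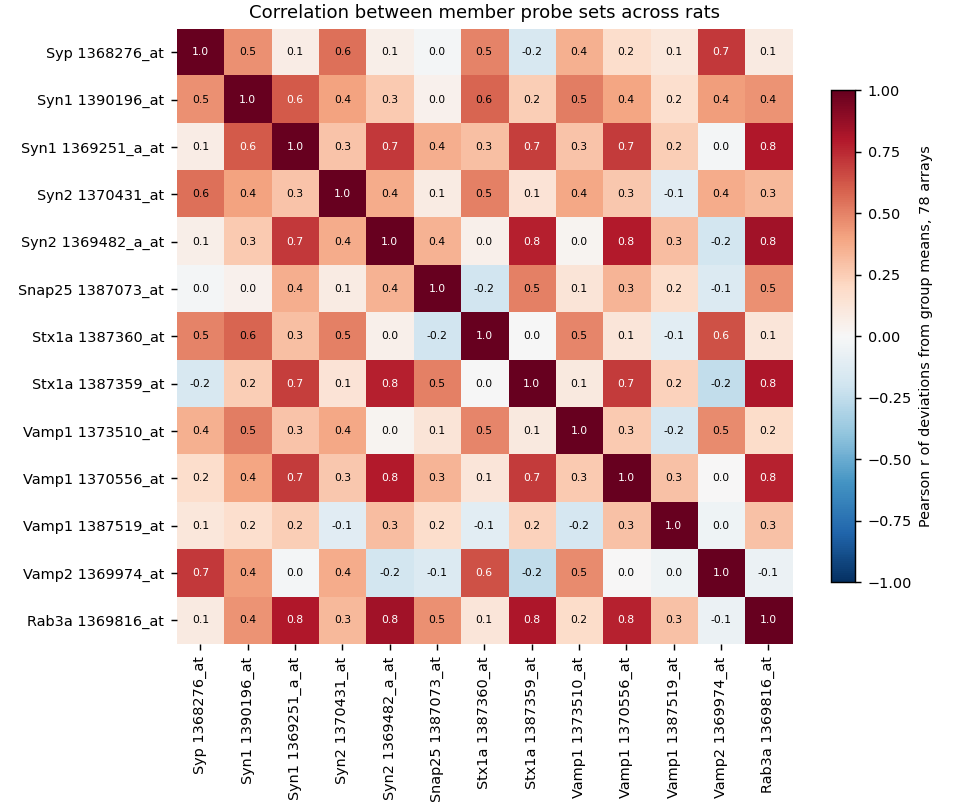
Pearson correlation between the 13 tested member probe sets over 78 arrays, computed on deviations from the 8 group means, red for positive and blue for negative values. Rab3a, Syn1 1369251_a_at, Syn2 1369482_a_at, Stx1a 1387359_at and Vamp1 1370556_at form 1 block of high values, and Syp with Vamp2 stands out among the others.

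The genes whose deviations were most like each member's were found among 8682 tested probe sets of other genes, by Pearson's r over 78 arrays. For Rab3a they were Nsf, the ATPase that takes spent SNARE complexes apart (r = 0.90), Septin3 (0.89) and Bcat1 (0.89), and their own r with the actin ratio was -0.75, -0.72 and -0.69. For Snap25 they were COX2 (0.76), Calm2, which encodes calmodulin (0.72), and Atp1b1, a subunit of the sodium pump (0.69), with r from -0.19 to -0.08 for the actin ratio. Syp was closest to Pi4ka, a lipid kinase (0.76), Cpt1c (0.71) and Slc1a1, a neuronal glutamate transporter (0.71). The synapsin Syn1 was closest to Ctxn1 (0.80), Susd4 (0.72) and Slc25a22 (0.68), and Syn2 to Syt17 (0.72), Actn2 (0.68) and Crym (0.62). Stx1a was closest to Nnat (0.69), the adhesion molecule L1cam (0.68) and Cend1 (0.68). Of the vesicle SNAREs, Vamp1 was closest to Mmp17 (0.67), Pde2a (0.64) and Pam (0.64), and Vamp2 to Brsk1, a kinase of nerve terminals (0.70), Cacng2 (0.68) and Sema6b (0.68). Without 5T-AI replicate 4 the first-named values of these 6 members were 0.58 to 0.73. Ctxn1, Syt17, Nnat and Brsk1 were still the closest then, while Pi4ka and Mmp17 each came 4th, and Slc1a1 came 47th for Syp.

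Genes of the same pathway were read in 4 lists chosen with earlier results of these data known. Over all 7489 tested genes with a name of their own, 5.92% had a probe set that rose in aged rats over the cohorts and 3.93% one that fell, 9.84% in all. Of 32 tested genes of SNARE proteins and their regulators 3 rose in aged rats over the cohorts and none fell. They were Stxbp3, a partner of syntaxins in other membranes (0.23 ± 0.04, adjusted p = 4.18e-07), Snapin, which binds Snap25 (0.14 ± 0.04, adjusted p = 0.0047), and Stxbp6 (0.12 ± 0.04, adjusted p = 0.020). Stxbp3 also rose with age on day 5 (0.21 ± 0.06, adjusted p = 0.027) and on day 21 (0.30 ± 0.06, adjusted p = 4.72e-04). The median of the list was 0.005, against -0.009 over all 7489 genes. With 3 of 32 genes called, the list's share was close to that over all genes.

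Of 20 tested genes of the active zone and of priming 2 fell with age over the cohorts, Lin7b (-0.13 ± 0.04, adjusted p = 0.040) and Erc1, a scaffold of the release site (-0.11 ± 0.04, adjusted p = 0.032), and none rose. Of 30 genes of vesicle membrane proteins and transporters 2 fell, Scamp1 (-0.15 ± 0.03 in 1388819_at, adjusted p = 0.0012) and the vesicular glutamate transporter Slc17a6 (-0.32 ± 0.07, adjusted p = 6.18e-04). The second Scamp1 probe set 1370978_at differed by -0.03 ± 0.05. Slc17a6, which is also on the list of the neighbouring thalamus, was the 1 gene of the list to fall on day 21 (-0.40 ± 0.12, adjusted p = 0.049). Of 23 endocytosis genes 1 fell over the cohorts, the clathrin adaptor subunit Ap2b1 (-0.07 ± 0.02 in 1367704_at, adjusted p = 0.046, and 0.09 ± 0.13 in 1370662_a_at). Next in order of p, and not past the threshold, were Vamp5 (0.16 ± 0.06) among the SNARE genes, Unc13c (0.12 ± 0.04) and Cadps (-0.06 ± 0.03) of priming, Syngr3 (-0.10 ± 0.04) and Syt4 (-0.09 ± 0.03 in 1375877_at) of the vesicle, and Pip5k1c (-0.10 ± 0.04), Ap2s1 (-0.07 ± 0.03) and Bin1 (0.08 ± 0.03) of endocytosis, with adjusted p from 0.053 to 0.150. Set against the 9.84% of all genes, the counts called in these 3 lists, 2 of 20, 2 of 30 and 1 of 23, show nothing particular to them. In the impairment comparisons no gene of the 4 lists passed in limma, and none of the 7489 genes did.

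Markers of other cell types moved with age beside these values. Of 11 tested microglial markers 10 rose over the cohorts, with a median of 0.57, against 5.92% of all genes. So did 3 of 8 astrocyte markers, 3 of 9 of oligodendrocytes and myelin, 1 of 5 of endothelium and both tested blood cell markers (median 0.84). Of 10 neuronal markers 3 fell, Tubb3 (-0.21 ± 0.04), Nefm (-0.21 ± 0.07) and Rbfox3 (-0.13 ± 0.04 in 1377095_at), and none rose, while 3.93% of all genes fell. On day 21, where 2.3% of all genes rose and 0.774% fell, 7 of 11 microglial markers rose (median 0.65), 4 of 5 of endothelium (0.52) and both of blood cells (0.95), and 1 of 10 neuronal markers fell, Tubb3 (-0.27). The summed signal of the 10 neuronal markers had medians of 38569 units in NT-A and 39329 units in NT-Y, 38232 in 5T-AI, 37000 in 5T-AU and 39083 in 5T-Y, and 39370 in 21PT-AI, 37937 in 21PT-AU and 39812 in 21PT-Y. The part of a changed share of cell types in the member values was not tested.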

How the data were processed

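The authors' deposited values are signal intensities, 1 per probe set and array, from RAE230A arrays processed with MAS5 and GCOS 1.1, per the submitters' processing notes. Each array had been scaled to a common trimmed mean (500.083 to 500.099 units with 2% trimmed from each end, as computed from the values). Groups came from the sample titles, and maze times, scan days, chip lots and fluidics modules from the deposited animal and array records. The deposited intensity values were taken to log2(signal + 1), and probe sets over the array's 40th percentile in 9 or more arrays were tested, 10371 of 15866. GEO's platform annotation gave 1 symbol for 12783 probe sets, several for 312 and none for 2771.

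All 78 arrays were fitted with 8 group means in limma 3.58.1 (lmFit and eBayes with trend, R 4.3.3), and a call was a Benjamini-Hochberg adjusted p under 0.05 over all tested probe sets. The maze slope was fitted in the trained arrays, per 10 s within groups. Relations between levels were tested with 100000 permutations of deviations from group means (Python 3.11.15, numpy 2.4.6, pandas 2.3.3, scipy 1.17.1, figures with matplotlib 3.10.9). The fit was tested on simulated data. Alternatives were a block for replicate number or for scan day, no filter on dim probes, quantile-normalized values, a pseudocount of 32, fluidics module as a term, the actin ratio as a covariate, only the arrays of the contrast, omission of 5T-AI replicate 4 and, added after the data were seen, chip lot as a block. All member probe sets are named. Of each pathway list, genes that passed and the 4 with the smallest p for age over the cohorts are named, and per member the 3 genes with the highest r. Members and lists were chosen with earlier results of these data known.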

Additional observations from a re-analysis of the deposited data

Results flagged for a closer look

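Of 112 groups of member values tested for an array far from the others, 13 held one. Chance flags about 1 in 20 independent groups. These 112 share arrays across probe sets, so the 13 are not read as an excess. Of the 13, 8 were the array 5T-AI replicate 4, the lowest of its group for Syp (11.13), Syn1 (10.98 in 1390196_at and 9.53 in 1369251_a_at), Syn2 1370431_at (9.60), Stx1a 1387360_at (8.77), Vamp1 1370556_at (8.84), Vamp2 1369974_at (10.65) and Rab3a (10.33), all on the log2 scale. The same array had the highest microglial marker sum of all 78 arrays and the lowest neuronal sum, 30941 and 28569 units, and the part of either in these levels was not tested.

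The other 5 lay in other arrays. In NT-Y, replicate 3 was the lowest for Syn1 1369251_a_at (9.82), replicate 5 the lowest for Syn2 1370431_at (10.04) and replicate 4 the highest for Vamp1 1373510_at (11.34). Replicate 3 of 5T-AU was the lowest for Syn2 1369482_a_at (9.42), and replicate 3 of 21PT-AU the lowest for Rab3a (11.13).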

How the results depend on the processing

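Across 10 alternatives and 16 comparisons, 1924 of 2067 member values kept their direction and their side of the threshold, 128 changed sign without passing in either fit, 15 passed where they had not, and 0 passed in opposite directions. All 15 were age differences. For age on day 21, where no member passed as reported, 1 passed with the replicate block, with chip lot as a block and with only the arrays of the contrast (Vamp1 1370556_at in each), 2 passed with scan day as a block (Vamp1 1370556_at and Syn2 1369482_a_at) and 2 without 5T-AI replicate 4 (Vamp1 1370556_at and Vamp2). For age over the cohorts, 1 passed with quantile normalization (Syp) and 1 without 5T-AI replicate 4 (Vamp1 1370556_at), and 2 passed (Syp and Vamp1 1370556_at) with the replicate block, with scan day and with chip lot as a block. The cause was not tested. As reported, 8.78% of all tested probe sets were called for age over the cohorts and 2.84% for age on day 21. Counts over all probe sets under the alternatives are given here only for day 21 and for some of the fits. The members' passes are therefore not read as particular to them. The count over all probe sets for age on day 21 was 295, against 501 with the replicate block, 487 with scan day, 512 with chip lot, 116 with fluidics module and 164 with the actin covariate. Fluidics modules nearly follow the groups (all 10 NT-Y arrays used module 1, and no array of NT-A, 5T-Y or 21PT-Y did). Same-numbered arrays of different groups correlated at a mean of 0.14, with 60.7% of 267 pairs over 0.1, against -0.02 and 25.6% for arrays of other numbers and 0.18 and 72.3% for arrays of the same scan day. Every same-numbered pair was over 0.1, which was the rule for pairing, in 2 of 28 pairs of groups, 21PT-Y with 5T-Y and with NT-A. In the comparison of 21PT-Y with 5T-Y 0 members passed with the replicate block, as without it. Signals near the filter level limit what can be read from Vamp1 1387519_at.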
